A study of Mus musculus with 12 samples.

Results

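The alcohol, aldehyde and retinol oxidoreductases of the mouse liver were taken from the table by their symbols, which had to begin with Adh, Aldh, Rdh, Dhrs or Akr followed by a number and at most a short suffix. Of 21936 genes, 67 carried such a name, and 53 of them had at least 10 reads in at least 3 of the 9 libraries, a rule that 12843 genes of the table met. The members just inside this limit were Aldh1a2 and Aldh1a3, whose third-highest counts over the libraries were 12 and 18 reads, and just outside it were Aldh3b2 with 8 and Rdh1 with 5. The 14 names left out for few reads were Adh6a, Adh6b, Aldh1l2, Aldh3a1, Aldh3b2, Akr1c21, Akr1cl, Dhrs2, Dhrs7c, Rdh1, Rdh12, Rdh16f1, Rdh19 and Rdh8. All libraries came from livers of male C57BL/6 mice, 6 weeks old on arrival, that had received carbon tetrachloride (CCl4), a hepatotoxin that leads to fibrosis, at 1 mL/kg into the peritoneum 2 times per week for 8 weeks. Mice of the liver fibrosis group (LFG) were killed when the CCl4 course ended. The regression group (REG) was then given 200 µL of phosphate-buffered saline into the tail vein, 2 times a week over 4 weeks. On the same schedule the hADMSCs-Exo group was given, in the same volume, 250 µg of exosomes, small vesicles that human adipose mesenchymal stem cells release. Each group held 3 libraries. The hADMSCs-Exo libraries are headed MSC_E in the deposited table, and that heading was read as the exosome group, on which every hADMSCs-Exo value rests. The 3 samples of the group given whole cells were not analysed here. No group was without CCl4, and LFG mice were sampled 4 weeks before the others, so recovery and age cannot be told apart in comparisons with LFG.

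These enzymes move hydride between alcohols, aldehydes or ketones and the nicotinamide cofactors. Alcohol dehydrogenases oxidise ethanol and retinol, and mitochondrial aldehyde dehydrogenases clear the acetaldehyde that ethanol yields. Retinoic acid is made from retinol by a reversible step, in which retinol dehydrogenases and retinal reductases work against each other, followed by an irreversible step taken by retinaldehyde dehydrogenases. Aldo-keto reductases reduce reactive aldehydes, glucose, steroids and bile acid precursors. Most of these genes are expressed by hepatocytes, while the liver's retinol store lies in hepatic stellate cells, the cells that become myofibroblasts in fibrosis.

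The libraries held 13837445 to 19840917 counted reads, and the members took 0.957% to 1.45% of them. Levels are given as FPKM, read counts scaled by gene length and library size, after TMM normalisation over the 9 libraries, and differences as log2 fold changes from edgeR's quasi-likelihood test, two-sided, with Benjamini-Hochberg adjustment over all genes tested. A gene was called where the adjusted p was under 0.05 and the log2 fold change was 1 or more in size. The labels list separate samples without naming separate animals, so a p-value measures the spread between these 3 samples per group. The hepatocyte markers used as a check of the tissue (Alb, Apoa1, Ttr and 5 others) summed to 39142, 62885 and 75601 FPKM in LFG 1, 2 and 3, to 75770 to 79662 in REG and to 54870 to 65274 in hADMSCs-Exo, and none was at 0. REG and hADMSCs-Exo did not overlap in this sum, and its part in their differences was not tested. LFG 3 stood apart from LFG 1 and LFG 2: its summed pericentral hepatocyte markers were 8654 FPKM against 854 and 2003, and its summed myofibroblast markers 3.20 FPKM against 144 and 85.1. In whole tissue, fewer cells of a type and less RNA per cell cannot be told apart.

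The 53 members differed widely in level. The mean over the 9 libraries was at least 100 FPKM for 9 members, between 10 and 100 for 26, between 1 and 10 for 13, and under 1 for 5. The class I alcohol dehydrogenase Adh1 came first with a mean of 716 FPKM, followed by the retinol and hydroxysteroid dehydrogenase Rdh7 with 659, the hydroxysteroid dehydrogenase Akr1c6 with 560, the mitochondrial acetaldehyde dehydrogenase Aldh2 with 401, the folate enzyme Aldh1l1 with 260 and the retinaldehyde dehydrogenase Aldh1a1 with 249. These 6 genes took 57.6% to 68.5% of the summed level of the members in each library. Adh1 and Rdh7 overlapped in range, at 409 to 1146 and 309 to 1036 FPKM, and their order differs between libraries. At the other end stood Aldh1a3 with 0.154 FPKM, Aldh1a2 with 0.277, Dhrs9 with 0.573, the proline-synthesis enzyme Aldh18a1 with 0.672 and Aldh3b3 with 0.860.

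**Figure D1:**
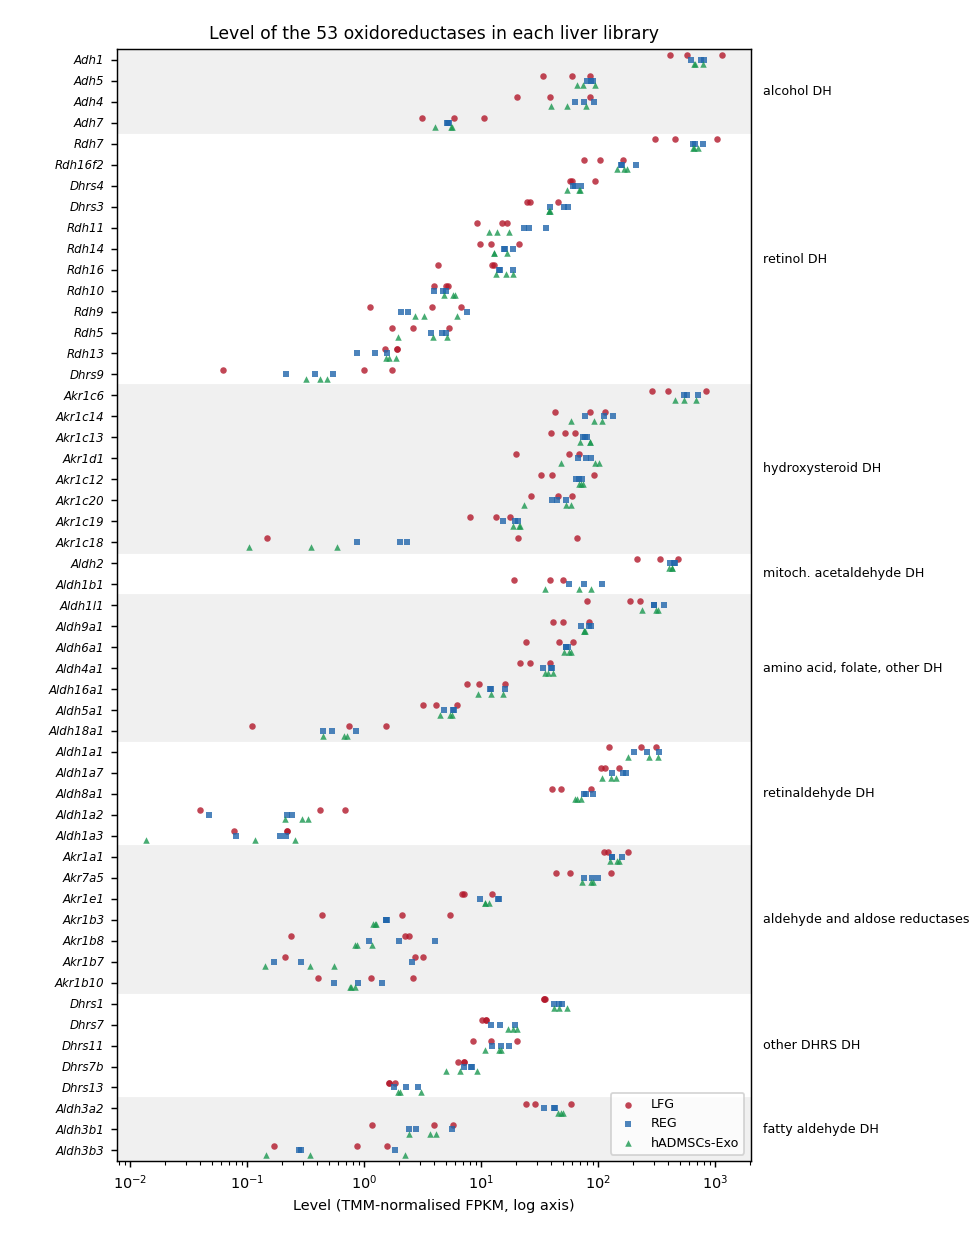
Level of each of the 53 members in every library as TMM-normalised FPKM on a log axis, with circles for LFG, squares for REG and triangles for hADMSCs-Exo (3 libraries each) and shading by enzyme role. Means over the 9 libraries run from 716 FPKM for Adh1 to 0.154 FPKM for Aldh1a3, and the LFG points spread more widely than those of the other groups in most rows.

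The spread between libraries was larger in LFG than in the recovery groups, and more so for these enzymes than for the table as a whole. The median standard deviation of log2 CPM over the members was 0.68 in LFG, 0.22 in REG and 0.23 in hADMSCs-Exo, whereas over all genes tested it was 0.46, 0.23 and 0.24. LFG 3 held the highest LFG value for 31 of the 53 members and the lowest for 14. Set against the 6 recovery libraries, LFG 3 lay above all of them for 18 members and below all of them for 16. LFG 1 and LFG 2 lay together below all 6 for 24 members and together above them for 5. The part of the pericentral and myofibroblast markers in this spread was not tested.

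**Figure D2:**
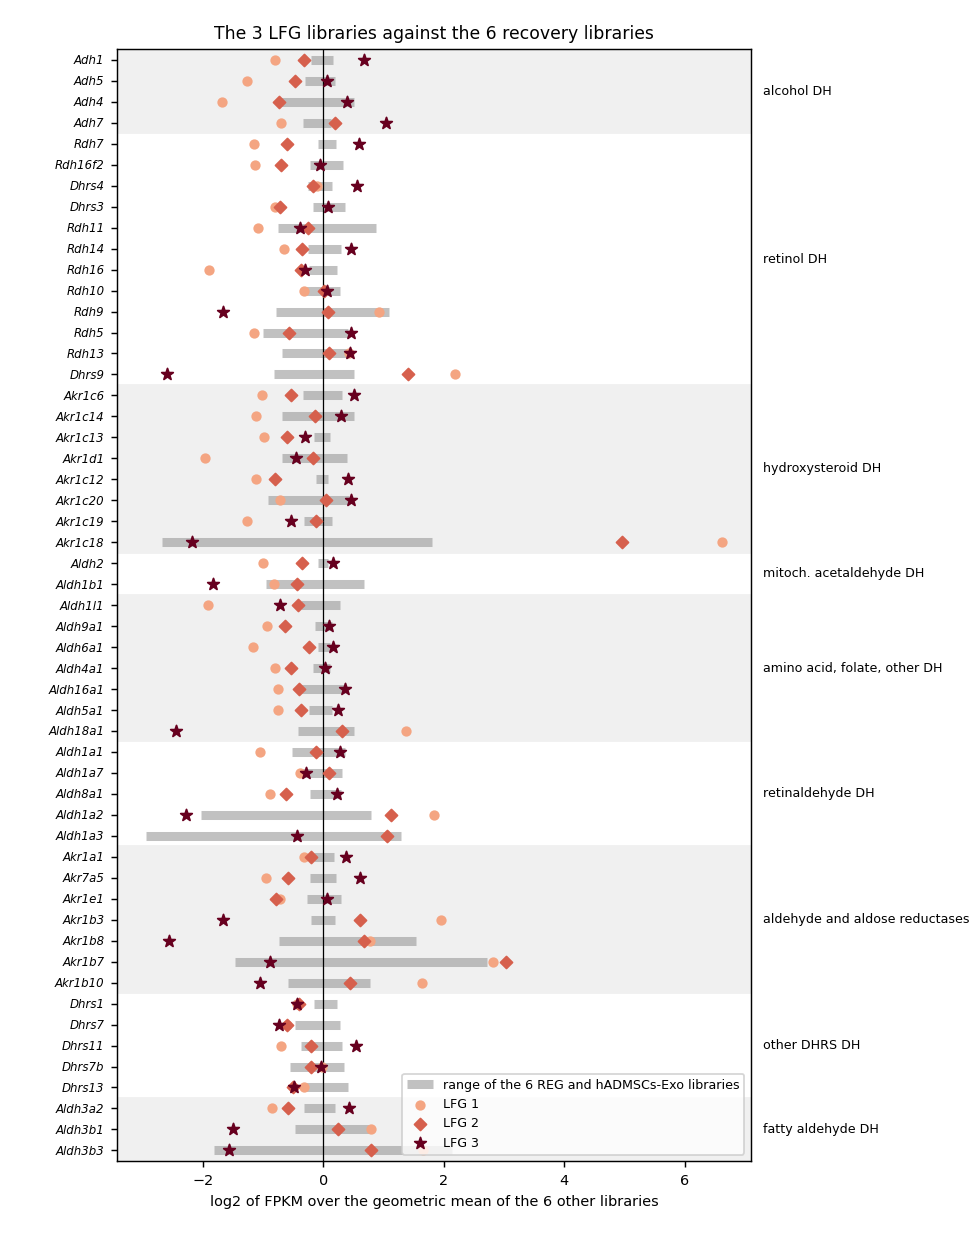
Each LFG library relative to the geometric mean FPKM of the 6 REG and hADMSCs-Exo libraries (log2 scale, 1 row per member), with grey bars for the range of those 6 libraries. LFG 1 and LFG 2 both lie left of the grey bar for 24 members, while LFG 3 lies right of it for 18 and left of it for 16.

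No member was called in any of the 3 comparisons. Between hADMSCs-Exo and REG, the exosome effect over the same recovery time, edgeR called 0 of 51 members tested, and 0.00811% of all genes tested. In hADMSCs-Exo against LFG it called 0 of 53 members and 0.00% of all genes, and in REG against LFG, recovery under saline, 0 of 52 members and 0.00% of all genes. DESeq2 called 0 members in the first comparison and 0.544% of all genes, Akr1c18 alone in the second and 0.512% of all genes, and Rdh11 alone in the third and 1.91% of all genes. At an unadjusted p under 0.05, edgeR gave 4 of 51 members between hADMSCs-Exo and REG, all lower with exosomes, against 10.0% of all genes (5.34% higher, 4.69% lower). It gave 5 of 53 members for hADMSCs-Exo against LFG (3 higher, 2 lower) against 5.98% of all genes (2.30% higher, 3.68% lower). For REG against LFG it gave 7 of 52 (6 higher, 1 lower) against 11.3% (4.62% higher, 6.70% lower). The members' counts were 7.84%, 9.43% and 13.5% of those tested. These counts depended on single libraries. For hADMSCs-Exo against REG the count was 2 without hADMSCs-Exo 2 (8.59% of all genes). For hADMSCs-Exo against LFG it was 3 without hADMSCs-Exo 2 (3.74%), 2 without hADMSCs-Exo 3 (2.91%), 2 without LFG 1 (4.14%) and 3 without LFG 2 (3.97%). For REG against LFG it was 3 without REG 1 (6.22%), 2 without REG 2 (4.51%), 3 without LFG 1 (8.96%), and 2 without REG 3, where the share of all genes lay between the last 2 of these.

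The members' median log2 fold change was -0.07 for the exosome comparison with REG, 0.15 for that of exosomes with LFG and 0.28 for that of REG with LFG. Over all genes tested the medians were 0.01, -0.06 and -0.07. Positive values were found for 17, 38 and 40 members and negative ones for 34, 15 and 12. Of all genes tested, 51.1%, 43.1% and 44.1% had positive values. The libraries of both groups did not overlap for 5 members between hADMSCs-Exo and REG (1 higher, 4 lower), against 15.5% of all genes (8.07% higher, 7.47% lower). Between hADMSCs-Exo and LFG this held for 7 members, all higher in hADMSCs-Exo, against 12.3% (6.34% higher, 5.95% lower). Between REG and LFG it held for 7, all higher in REG, against 19.0% (8.89% higher, 10.1% lower).

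**Figure D3:**
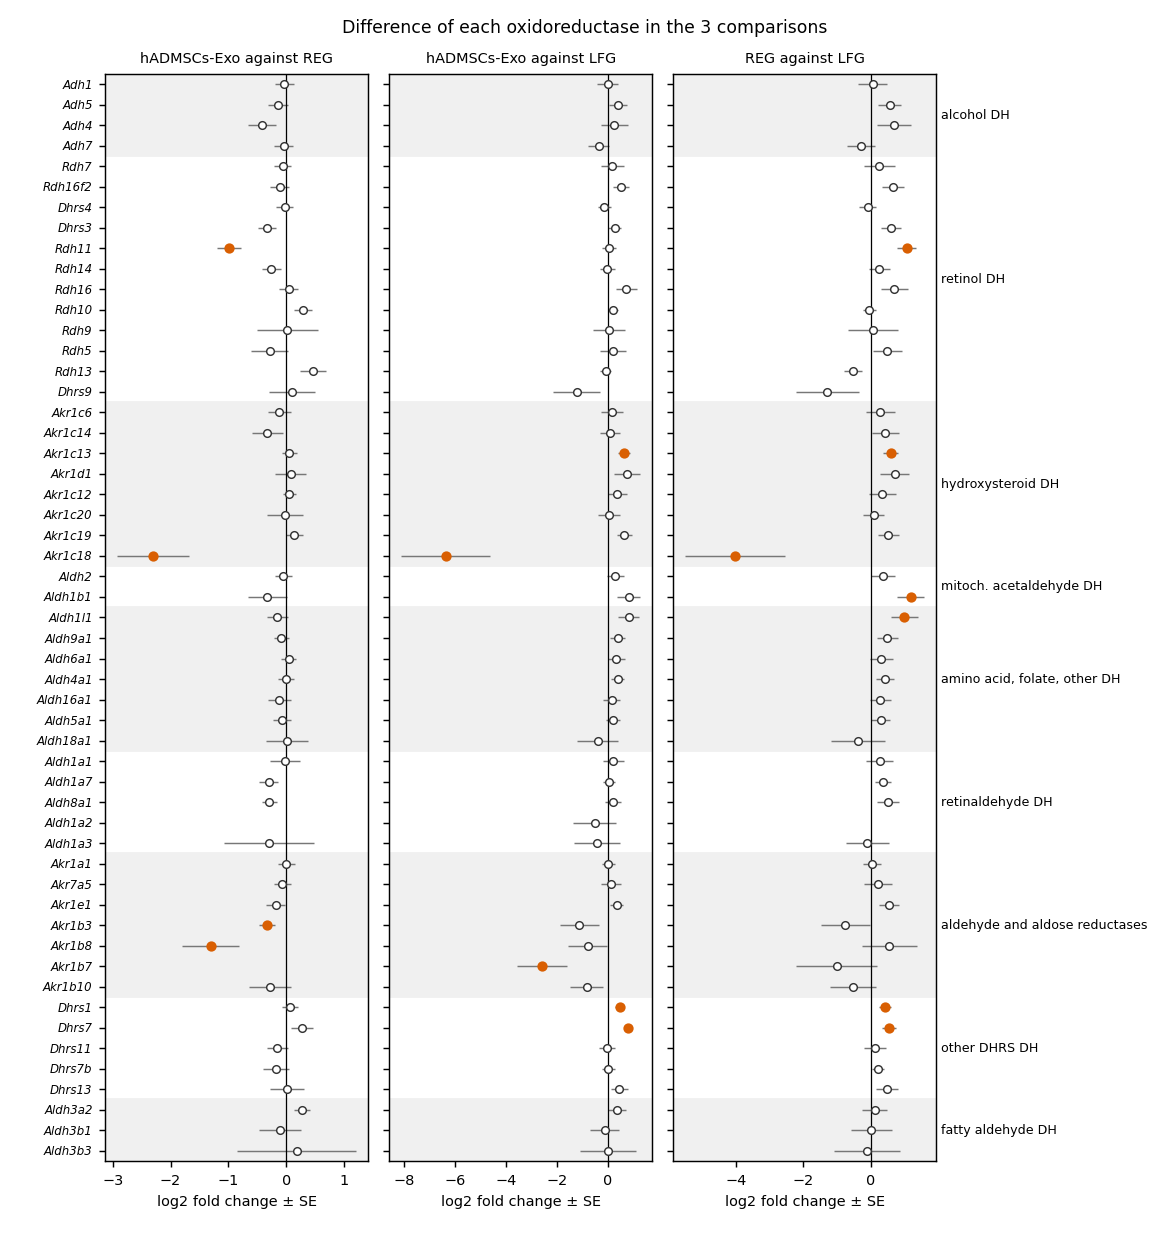
Log2 fold change with its standard error for every tested member in the 3 comparisons, ordered by enzyme role, with filled points where the unadjusted edgeR p was under 0.05. Filled points number 4, 5 and 7, none passes the adjusted threshold, and the scales of the 3 panels differ because Akr1c18 reaches -6.37 against LFG.

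Leaving out LFG 3 altered the picture against LFG. Without it, 4 of 53 members were called for hADMSCs-Exo against LFG, against 5.97% of all genes, and 24 had an unadjusted p under 0.05, against 28.5%. Akr1c18, Akr1b7, Dhrs9 and Akr1b3 were the 4, and all had fallen in hADMSCs-Exo. With no limit on fold change, 8 members had an adjusted p under 0.05 from edgeR, 4 higher and 4 lower, beside 7.09% of all genes. For REG against LFG, 7 of 53 members were called, against 10.7% of all genes, and 30 had an unadjusted p under 0.05, against 37.3%. Adh4, Rdh5, Rdh11 and Rdh16f2 had risen in REG, while Akr1c18, Akr1b3 and Dhrs9 had fallen. Of these, Rdh5 was picked out after its values were seen. With no limit on fold change, 17 members had an adjusted p under 0.05 from edgeR, 14 higher and 3 lower in REG, beside 16.8% of all genes. Without LFG 3 the medians of the members were 0.52 and 0.61, and those of all genes 0.00 and -0.01. The counts are those of a fit with 2 LFG libraries and rest on the choice to leave out the third.

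Retinol dehydrogenases and retinal reductases formed the largest role group, with 12 members kept and all tested. Rdh11, an NADPH-dependent reductase that turns retinaldehyde back into retinol, gave the smallest p of any member between hADMSCs-Exo and REG. It was at 23.2, 36.1 and 25.5 FPKM in REG 1, 2 and 3, at 11.8, 17.2 and 13.7 in hADMSCs-Exo and at 9.29, 16.7 and 15.2 in LFG. Every REG library lay above every library of both other groups, and the hADMSCs-Exo and LFG ranges overlapped. The log2 fold change of hADMSCs-Exo against REG was -0.99 (standard error, SE, of 0.20, 95% interval -1.46 to -0.52, adjusted p = 0.358 from edgeR), and leaving out 1 library at a time kept it between -1.15 and -0.79. DESeq2 gave it an adjusted p of 0.00686, with a fold change just short of the limit. Against LFG, which shares the REG libraries with the comparison above, REG was higher by 1.05 on the log2 scale (with an SE of 0.29, adjusted p = 0.323 from edgeR and 0.0452 from DESeq2), and by 1.17 without LFG 3 (adjusted p = 0.0402 from edgeR). For exosomes and LFG the value was 0.05 (95% interval -0.59 to 0.68), and 0.15 without LFG 3.

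The region upstream of the inner of its RefSeq starts, on chromosome 12 of GRCm38 and the minus strand, is printed because it held matches to a motif searched. It lies inside the Rdh11 gene and outside the exons of GENCODE. The 250 bases before the outer start held no match and are not shown. Bases 250 to 51 before the inner start, chr12:79191012-79191211, read 5′ to 3′, with the E-box CACGTG in capitals at 230 and 182 bases before the start:
Rdh11: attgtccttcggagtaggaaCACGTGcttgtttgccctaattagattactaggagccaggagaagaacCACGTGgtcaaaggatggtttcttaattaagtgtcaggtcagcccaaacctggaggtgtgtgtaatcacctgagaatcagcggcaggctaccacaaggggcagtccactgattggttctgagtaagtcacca
On either strand, CACGTG was present in 6.02% of 32851 RefSeq promoter windows of 250 bases and in 4 of the 54 windows of the 47 members that had one. The same search found the TATA box TATAAA in 12.4% of windows (8 member windows), the sterol response element TCACNCCAC in 1.05% (1) and the antioxidant response element TGACNNNGC in 10.2% (3). A match is a run of letters and says nothing of a factor bound there.

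Between hADMSCs-Exo and REG the other 11 retinol enzymes gave no unadjusted p under 0.05 from edgeR, which 10.0% of all genes did. Rdh10, which makes retinaldehyde from retinol, was at 3.97 to 4.98 FPKM in REG and 4.86 to 6.04 in hADMSCs-Exo (log2 fold change 0.28, 95% interval -0.07 to 0.64). Dhrs3, a retinaldehyde reductase induced by retinoic acid, was at 39.2 to 54.9 FPKM in REG and 38.0 to 39.2 in hADMSCs-Exo (-0.33, interval -0.68 to 0.01). Rdh7 was at 648 to 796 and 648 to 709 FPKM (-0.07, interval -0.40 to 0.27), and Rdh16f2, a gene of the same cluster, at 157 to 210 and 145 to 178 (-0.11, interval -0.50 to 0.27). In LFG 1, 2 and 3 Rdh7 was at 309, 452 and 1036 FPKM. Its REG against LFG value was 0.24 with all libraries and 0.94 without LFG 3 (adjusted p = 0.863 and 0.0485 from edgeR). Rdh16f2 was at 76.5, 103 and 162 FPKM in LFG 1, 2 and 3, and REG against LFG was 0.64 with all libraries and 1.01 without LFG 3 (adjusted p = 0.496 and 0.0294 from edgeR). Against LFG, Dhrs3 was at 24.7, 26.0 and 45.4 FPKM in LFG 1, 2 and 3. The LFG 3 value alone overlapped REG, and the log2 fold change of REG against LFG was 0.60 with all libraries (adjusted p = 0.489 from edgeR) and 0.97 without LFG 3 (adjusted p = 0.0248 from edgeR). Dhrs9, a retinol dehydrogenase of several epithelia, was at 1.72, 1.01 and 0.0627 FPKM in LFG 1, 2 and 3, at 0.216 to 0.539 in REG and at 0.318 to 0.486 in hADMSCs-Exo. LFG 1 and LFG 2 were above and LFG 3 below all recovery libraries, and the log2 fold change of REG against LFG was -1.29 with LFG 3 and -1.79 without it (adjusted p = 0.622 and 0.0359 from edgeR). For hADMSCs-Exo against LFG it was -1.22 and -1.73 (adjusted p = 0.868 and 0.04 from edgeR).

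Retinaldehyde dehydrogenases, which commit retinaldehyde to retinoic acid, gave no unadjusted p under 0.05 from edgeR with all libraries. Of all genes, 10.0% (hADMSCs-Exo against REG), 5.98% (hADMSCs-Exo against LFG) and 11.3% (REG against LFG) did. Without LFG 3, 1 of 5 did for hADMSCs-Exo against LFG, beside 28.5% of all genes, and 2 of 5 for REG against LFG, beside 37.3%. Aldh1a1 was at 202, 329 and 265 FPKM in REG 1, 2 and 3, at 179, 270 and 329 in hADMSCs-Exo and at 124, 235 and 312 in LFG. The 3 groups overlapped, and the log2 fold change of hADMSCs-Exo against REG was -0.03 (95% interval -0.62 to 0.57). Aldh1a7, a close relative of Aldh1a1, was at 133 to 174 FPKM in REG and at 109 to 143 in hADMSCs-Exo (-0.30, interval -0.67 to 0.06, adjusted p = 0.556 from edgeR). Aldh8a1, picked out after its values were seen because its groups did not overlap, was at 76.4 to 90.8 FPKM in REG and 63.3 to 71.3 in hADMSCs-Exo (-0.30, adjusted p = 0.507 from edgeR, with an unadjusted p under 0.05 in DESeq2). In LFG 1, 2 and 3 it was at 40.3, 48.2 and 86.7 FPKM, and REG against LFG was 0.50 with all libraries and 0.94 without LFG 3 (adjusted p = 0.588 and 0.0266 from edgeR). Aldh1a2, the retinaldehyde dehydrogenase of mesothelial and stromal cells, was near the detection limit, with counts of 37, 17 and 1 in LFG 1, 2 and 3, 8, 10 and 2 in REG, and 8, 11 and 12 in hADMSCs-Exo. With all libraries it passed the count filter for hADMSCs-Exo against LFG alone (log2 fold change -0.52, interval -2.51 to 1.46). Without LFG 3 it was -0.98 there and -1.67 for REG against LFG (adjusted p = 0.241 and 0.113 from edgeR).

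Alcohol dehydrogenases, 4 members of 1 cluster on chromosome 3, gave no unadjusted p under 0.05 from edgeR with all libraries and no block. Of all genes, 10.0% (hADMSCs-Exo against REG), 5.98% (hADMSCs-Exo against LFG) and 11.3% (REG against LFG) did. Without LFG 3, 2 of 4 members did in each comparison with LFG, where 28.5% (hADMSCs-Exo) and 37.3% (REG) of all genes did. Adh1 was at 753, 805 and 624 FPKM in REG 1, 2 and 3, at 674, 666 and 793 in hADMSCs-Exo and at 409, 574 and 1146 in LFG. The recovery groups overlapped, with a log2 fold change of -0.03 (95% interval -0.41 to 0.35), and LFG 3 was the highest of the 9 libraries while LFG 1 was the lowest. Adh4, the class II enzyme, was at 63.0 to 92.3 FPKM in REG, 39.7 to 78.3 in hADMSCs-Exo and 20.3, 39.1 and 85.6 in LFG 1, 2 and 3. For hADMSCs-Exo against REG it was -0.42 (interval -0.99 to 0.15, adjusted p = 0.598 from edgeR), with an unadjusted p under 0.05 when the replicate number was a block. Same-numbered hADMSCs-Exo and REG samples hardly deviated together (correlations 0.159, 0.00938 and 0.0336), which gives little ground for that block. REG against LFG was 0.68 with all libraries (adjusted p = 0.625 from edgeR) and 1.42 without LFG 3 (adjusted p = 0.0267 from edgeR). Adh5, which oxidises the glutathione adduct of formaldehyde, was at 80.6 to 91.1 FPKM in REG and 66.7 to 94.1 in hADMSCs-Exo (-0.14, interval -0.52 to 0.23).

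Of the mitochondrial acetaldehyde dehydrogenases, Aldh2 was at 411 to 456 FPKM in REG and at 407 to 431 in hADMSCs-Exo, a log2 fold change of -0.05 with a 95% interval of -0.38 to 0.27. In LFG 1, 2 and 3 it was at 216, 337 and 480 FPKM, so that LFG 3 again exceeded every other library and the others lay below. Aldh1b1, the other member of this role, was at 38.6, 49.9 and 19.0 FPKM in LFG, at 56.6, 108 and 75.5 in REG and at 35.3, 68.1 and 87.0 in hADMSCs-Exo. All REG libraries exceeded all LFG libraries, with LFG 3 the lowest here, and the log2 fold change was 1.17 (with an SE of 0.40, interval 0.22 to 2.12, adjusted p = 0.392 from edgeR). Without LFG 3 it was 0.90. hADMSCs-Exo overlapped both other groups.

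Among the aldehyde dehydrogenases of amino acid, folate and carnitine metabolism, 6 of 7 members had positive log2 fold changes in each comparison with LFG. Of all genes tested, 43.1% (hADMSCs-Exo) and 44.1% (REG) had positive ones. Aldh1l1, cytosolic formyltetrahydrofolate dehydrogenase, was at 80.8, 229 and 186 FPKM in LFG 1, 2 and 3, at 302, 369 and 302 in REG and at 235, 315 and 325 in hADMSCs-Exo. LFG lay below both recovery groups in every library. The log2 fold change was 0.98 for REG (with an SE of 0.40, adjusted p = 0.433 from edgeR) and 0.81 for hADMSCs-Exo (with an SE of 0.41, adjusted p = 0.808 from edgeR). The unadjusted p of the latter was under 0.05 with the replicate number as a block and with all 9 libraries in one fit. Without LFG 3 the values were 1.12 and 0.93. Aldh9a1, an enzyme of carnitine synthesis, was at 41.0, 50.6 and 83.7 FPKM in LFG and 71.9 to 87.1 in REG. The LFG 3 value fell inside the REG range, and the log2 fold change went from 0.48 to 0.87 when LFG 3 was left out (adjusted p = 0.578 and 0.0316 from edgeR).

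Of the fatty aldehyde dehydrogenases, Aldh3a2 was at 42.6, 34.8 and 41.8 FPKM in REG 1, 2 and 3 and at 49.9, 48.6 and 45.2 in hADMSCs-Exo. It was the 1 member whose exosome libraries all exceeded the REG libraries, by 0.27 on the log2 scale (95% interval -0.06 to 0.59, adjusted p = 0.562 from edgeR). In LFG 1, 2 and 3 it was at 24.1, 28.9 and 58.4 FPKM, and hADMSCs-Exo against LFG was 0.36 with all libraries and 0.87 without LFG 3 (adjusted p = 0.9 and 0.0426 from edgeR). Aldh3b1 was at 2.41 to 5.69 FPKM in REG and 2.42 to 4.10 in hADMSCs-Exo (-0.11, interval -0.95 to 0.74).

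Hydroxysteroid dehydrogenases of the Akr1c family and Akr1d1, the steroid reductase of bile acid synthesis, gave the widest differences through 1 gene. Akr1c18, a hydroxysteroid dehydrogenase that inactivates progesterone, was at 65.6, 20.8 and 0.148 FPKM in LFG 1, 2 and 3, from 1880, 449 and 2 reads. It was at 2.04, 0.865 and 2.33 FPKM in REG (40, 19 and 53 reads) and at 0.589, 0.349 and 0.104 in hADMSCs-Exo (12, 7 and 2 reads). LFG 1 and LFG 2 were far above every recovery library, LFG 3 was among the lowest, and all REG libraries exceeded all hADMSCs-Exo libraries. The log2 fold change was -2.30 for hADMSCs-Exo against REG (with an SE of 0.62, 95% interval -3.72 to -0.89, adjusted p = 0.394 from edgeR and 0.055 from DESeq2). For hADMSCs-Exo against LFG it was -6.37 (with an SE of 1.75, adjusted p = 0.805 from edgeR and 0.0307 from DESeq2), -6.91 without LFG 3 (adjusted p = 0.00952 from edgeR) and -4.89 without LFG 1 (adjusted p = 0.992 from edgeR). For REG against LFG it was -4.03 (with an SE of 1.47, adjusted p = 0.402 from edgeR and 0.173 from DESeq2), -4.59 without LFG 3 (adjusted p = 0.0119 from edgeR) and -2.56 without LFG 1.

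Myofibroblast markers were, like Akr1c18, high in LFG 1 and LFG 2, lower in REG and lowest in hADMSCs-Exo and LFG 3. The 9 markers summed to 144, 85.1 and 3.20 FPKM in LFG 1, 2 and 3. In REG 1, 2 and 3 they summed to 20.5, 26.6 and 14.5 FPKM, and in hADMSCs-Exo 1, 2 and 3 to 4.52, 10.2 and 9.36. Within REG and within hADMSCs-Exo, the libraries were ordered otherwise than for Akr1c18. Of 8 tested between hADMSCs-Exo and REG, 6 were lower in hADMSCs-Exo at an unadjusted p under 0.05, beside 4.69% of all genes, and Tagln was at 0 in 5 of the 6 recovery libraries. Other cell types' markers also separated LFG 3 from LFG 1 and LFG 2. Macrophage markers summed to 311, 243 and 40.4 FPKM in LFG 1, 2 and 3, to 88.9 to 327 in REG and to 184 to 250 in hADMSCs-Exo. Cholangiocyte markers summed to 114, 86.6 and 27.5 FPKM in LFG, to 38.2 to 42.0 in REG and to 30.0 to 75.9 in hADMSCs-Exo. Dhrs9, Akr1b3, Akr1b7 and Aldh1a2, the last near the detection limit, were likewise higher in LFG 1 and LFG 2 than in LFG 3. Other members shared this, as LFG 3 was the lowest LFG library for 14 members. The part of any of these markers in the values of these genes was not tested.

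**Figure D4:**
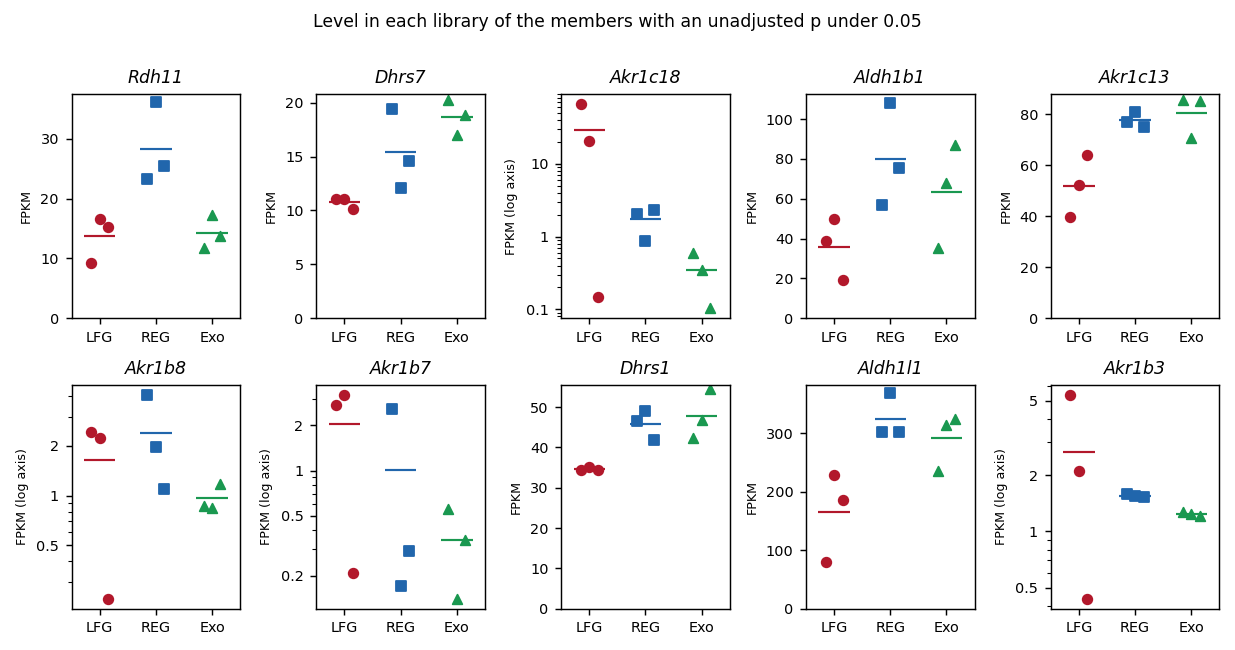
FPKM in every library (points) and group means (lines) for the 10 members with an unadjusted edgeR p under 0.05 in at least 1 comparison, with log axes for Akr1c18, Akr1b8, Akr1b7 and Akr1b3. Rdh11 is highest in the 3 REG libraries, and Akr1c18, Akr1b3, Akr1b7 and Akr1b8 split LFG 3 from LFG 1 and LFG 2.

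The other steroid enzymes spanned a narrower range than Akr1c18. Akr1c6 was at 539, 720 and 575 FPKM in REG, at 459, 546 and 682 in hADMSCs-Exo and at 289, 399 and 832 in LFG 1, 2 and 3, with a log2 fold change of -0.12 between the recovery groups (95% interval -0.57 to 0.33). Akr1c14 was at 77.9 to 133 FPKM in REG and 58.3 to 107 in hADMSCs-Exo (-0.33, interval -0.94 to 0.28). Akr1d1 was at 67.9 to 87.2 FPKM in REG, 48.1 to 102 in hADMSCs-Exo and 19.9, 68.6 and 56.8 in LFG, and its difference between hADMSCs-Exo and LFG was 0.75 (adjusted p = 0.857 from edgeR), with an unadjusted p under 0.05 when the replicate number was a block. LFG 1 was far below the other libraries of Akr1d1, and without LFG 3 the value was 0.90. Akr1c13, an aldo-keto reductase of the same family, was at 39.7, 52.3 and 63.9 FPKM in LFG, at 76.9, 80.8 and 74.9 in REG and at 85.6, 70.8 and 85.2 in hADMSCs-Exo. LFG lay below both recovery groups without overlap, by 0.59 against REG (with an SE of 0.22, adjusted p = 0.41 from edgeR) and 0.63 against hADMSCs-Exo (with an SE of 0.22, adjusted p = 0.805 from edgeR). Without LFG 3 these were 0.80 and 0.82. Between the recovery groups it differed by 0.05 (interval -0.24 to 0.34).

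Reads of Akr1c13 may be shared with Akr1c12, a gene of the same cluster. Of the 50-base stretches of the Akr1c13 transcript, 28.6% occur in that of Akr1c12. Their upstream regions are printed to show how alike the pair is. Over bases 250 to 51 before the RefSeq starts, on chr13:4279450-4279649 (minus strand) for Akr1c12 and chr13:4190937-4191136 (plus strand) for Akr1c13 of GRCm38, 188 of 204 aligned columns were identical (92.2%), with 8 mismatches and 8 gaps. Capitals mark bases that differ or lie opposite a gap, and both read 5′ to 3′:
Akr1c12: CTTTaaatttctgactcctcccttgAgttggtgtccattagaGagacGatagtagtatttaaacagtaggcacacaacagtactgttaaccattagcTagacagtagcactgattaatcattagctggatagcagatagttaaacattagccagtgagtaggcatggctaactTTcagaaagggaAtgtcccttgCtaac
Akr1c13: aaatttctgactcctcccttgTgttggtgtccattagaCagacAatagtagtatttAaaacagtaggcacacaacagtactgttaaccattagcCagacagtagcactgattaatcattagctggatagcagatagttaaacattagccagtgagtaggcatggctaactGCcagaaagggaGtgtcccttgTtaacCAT
Akr1c12, picked out after its values were seen, was at 64.9 to 73.6 FPKM in REG and 68.6 to 74.3 in hADMSCs-Exo, close to Akr1c13, but LFG 3 stood at 92.9 FPKM for Akr1c12 and at 63.9 for Akr1c13, above the recovery range in the one and below it in the other. For Akr1c12, hADMSCs-Exo against LFG was 0.37 with all libraries and 0.99 without LFG 3 (adjusted p = 0.906 and 0.0266 from edgeR), and REG against LFG 0.33 and 0.97 (adjusted p = 0.768 and 0.0174 from edgeR). The upstream region of Akr1c18 in the same cluster, chr13:4150697-4150896 (minus strand), is shown beside them for the member with the widest differences, and held none of the motifs searched:
Akr1c18: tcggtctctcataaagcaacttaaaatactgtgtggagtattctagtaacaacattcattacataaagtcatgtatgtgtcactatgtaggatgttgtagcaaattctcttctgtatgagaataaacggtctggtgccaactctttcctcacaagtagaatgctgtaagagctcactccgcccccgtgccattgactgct

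Aldehyde and aldose reductases comprised abundant and scarce members. Akr1a1, the aldehyde reductase, was at 131 to 159 FPKM in REG and 126 to 150 in hADMSCs-Exo (log2 fold change 0.00, 95% interval -0.33 to 0.33), and Akr7a5, an aflatoxin aldehyde reductase, at 76.1 to 99.0 and 73.2 to 90.1 FPKM (-0.07, interval -0.40 to 0.26). In LFG 1, 2 and 3, Akr1a1 was at 113, 121 and 182 FPKM and Akr7a5 at 44.0, 57.1 and 130, with LFG 3 the highest of the 9 libraries for both. With all libraries REG against LFG was 0.03 for Akr1a1 and 0.20 for Akr7a5 (adjusted p = 0.977 and 0.879 from edgeR). Without LFG 3 it was 0.31 and 0.84 (adjusted p = 0.295 and 0.0354 from edgeR). Akr1b3, aldose reductase, the enzyme that makes sorbitol from glucose, was at 1.59, 1.55 and 1.53 FPKM in REG 1, 2 and 3 and at 1.26, 1.24 and 1.2 in hADMSCs-Exo. The groups did not overlap, and hADMSCs-Exo was lower by a log2 fold change of -0.34 (with an SE of 0.14, adjusted p = 0.491 from edgeR and 0.616 from DESeq2). In LFG 1, 2 and 3 it was at 5.38, 2.11 and 0.437 FPKM, so that LFG covered both recovery groups. hADMSCs-Exo against LFG was -1.12 with all libraries and -1.59 without LFG 3 (adjusted p = 0.857 and 0.0427 from edgeR), and REG against LFG -0.76 and -1.23 (adjusted p = 0.713 and 0.0494 from edgeR). Of the 50-base stretches of its transcript, 86.2% occur in another gene (82.4% in Gm38056), and its counts are uncertain to that extent.

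The aldose reductase relatives Akr1b7 and Akr1b8, which act on lipid aldehydes, were scarce as well. Akr1b8 was at 4.07, 1.98 and 1.1 FPKM in REG, at 0.869, 0.844 and 1.18 in hADMSCs-Exo and at 2.42, 2.24 and 0.239 in LFG 1, 2 and 3. REG 3 lay inside the hADMSCs-Exo range, and the log2 fold change was -1.31 (with an SE of 0.49, adjusted p = 0.463 from edgeR), or -0.66 to -1.66 when 1 library was left out. Akr1b7 was at 2.73, 3.19 and 0.209 FPKM in LFG, at 2.55, 0.172 and 0.290 in REG and at 0.555, 0.141 and 0.344 in hADMSCs-Exo. LFG 1, LFG 2 and REG 1 were high and the other 6 low, and the log2 fold change of hADMSCs-Exo against LFG was -2.57 (with an SE of 0.98, adjusted p = 0.805 from edgeR) and -3.06 without LFG 3 (adjusted p = 0.0266 from edgeR). With the replicate number as a block its unadjusted p was above 0.05. The region upstream of Akr1b8, bases 250 to 51 before its start at chr6:34353896-34354095 (plus strand, GRCm38), is printed because it held a TATA box, on the minus strand 159 bases before the start and in capitals:
Akr1b8: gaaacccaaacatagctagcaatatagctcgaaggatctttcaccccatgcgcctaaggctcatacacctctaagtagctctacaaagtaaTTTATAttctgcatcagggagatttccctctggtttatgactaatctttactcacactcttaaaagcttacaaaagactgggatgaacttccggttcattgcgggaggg
Aligned with the same stretch of Akr1b7, 112 of 237 columns were identical (47.3%).

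Short-chain dehydrogenases of the DHRS family outside retinol metabolism included the smallest p of any member for hADMSCs-Exo against LFG with all libraries. Dhrs7, a microsomal enzyme that reduces steroids and retinoids in vitro, was at 11.1, 11.1 and 10.1 FPKM in LFG 1, 2 and 3, at 19.5, 12.1 and 14.6 in REG and at 20.3, 17 and 18.8 in hADMSCs-Exo. LFG 3 was close to LFG 1 and LFG 2 here, and LFG lay below both recovery groups without overlap. Neutrophil markers summed to 13.5 to 25.6 FPKM in LFG, 12.3 to 73.8 in REG and 41.9 to 73.0 in hADMSCs-Exo, and lymphocyte markers to 1.51 to 8.06, 5.07 to 11.1 and 10.9 to 11.4, so that hADMSCs-Exo lay above LFG in both. Their part in the values of Dhrs7 was not tested. The log2 fold change of hADMSCs-Exo against LFG was 0.79 (with an SE of 0.16, 95% interval 0.40 to 1.17, adjusted p = 0.805 from edgeR and 0.0022 from DESeq2), and 0.77 without LFG 3 (adjusted p = 0.0383 from edgeR), under the fold limit in each. REG against LFG was 0.53 (with an SE of 0.22, adjusted p = 0.435 from edgeR), or 0.52 without LFG 3, and the recovery groups differed by 0.28 (interval -0.16 to 0.71). Dhrs1 was at 34.4, 35.3 and 34.5 FPKM in LFG, at 46.6, 49.1 and 41.9 in REG and at 42.3, 46.7 and 54.6 in hADMSCs-Exo. LFG was again lower in every library, by 0.41 against REG (adjusted p = 0.435 from edgeR) and 0.46 against hADMSCs-Exo (adjusted p = 0.805 from edgeR, with an unadjusted p above 0.05 under the replicate block). Without LFG 3 the values were 0.44 and 0.47.

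Clusters of at least 3 members, each within 500 kb of the next, held 20 of the 53 members. On chromosome 13 of GRCm38, from 4049011 to 4609174, lay Akr1c14, Akr1c18, Akr1c13, Akr1c19, Akr1c12, Akr1c6, Akr1c20 and Akr1e1. Akr1c18 had the only negative log2 fold change against LFG among these 8 genes, in both comparisons, with and without LFG 3. Its neighbours on either side, Akr1c14 and Akr1c13, were at 0.43 and 0.59 for REG against LFG, and both at 0.80 without LFG 3. The Akr1b cluster on chromosome 6, from 34302434 to 34423142, held Akr1b3, Akr1b8, Akr1b10 and Akr1b7, whose values for hADMSCs-Exo against LFG were all negative, from -0.79 to -2.57 and without LFG 3 from -1.24 to -3.06. For REG against LFG, Akr1b8 was at 0.54 (0.07 without LFG 3) and the other 3 were negative, from -0.53 to -1.02 and without LFG 3 from -0.93 to -1.54. The Adh cluster on chromosome 3, from 138217760 to 138455499, held Adh7, Adh1, Adh4 and Adh5, and that on chromosome 10, from 127776386 to 127888817, held Rdh9, Rdh16, Rdh16f2 and Rdh7. Genes of a cluster are not independent, and those alike in sequence may share reads.

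**Figure D5:**
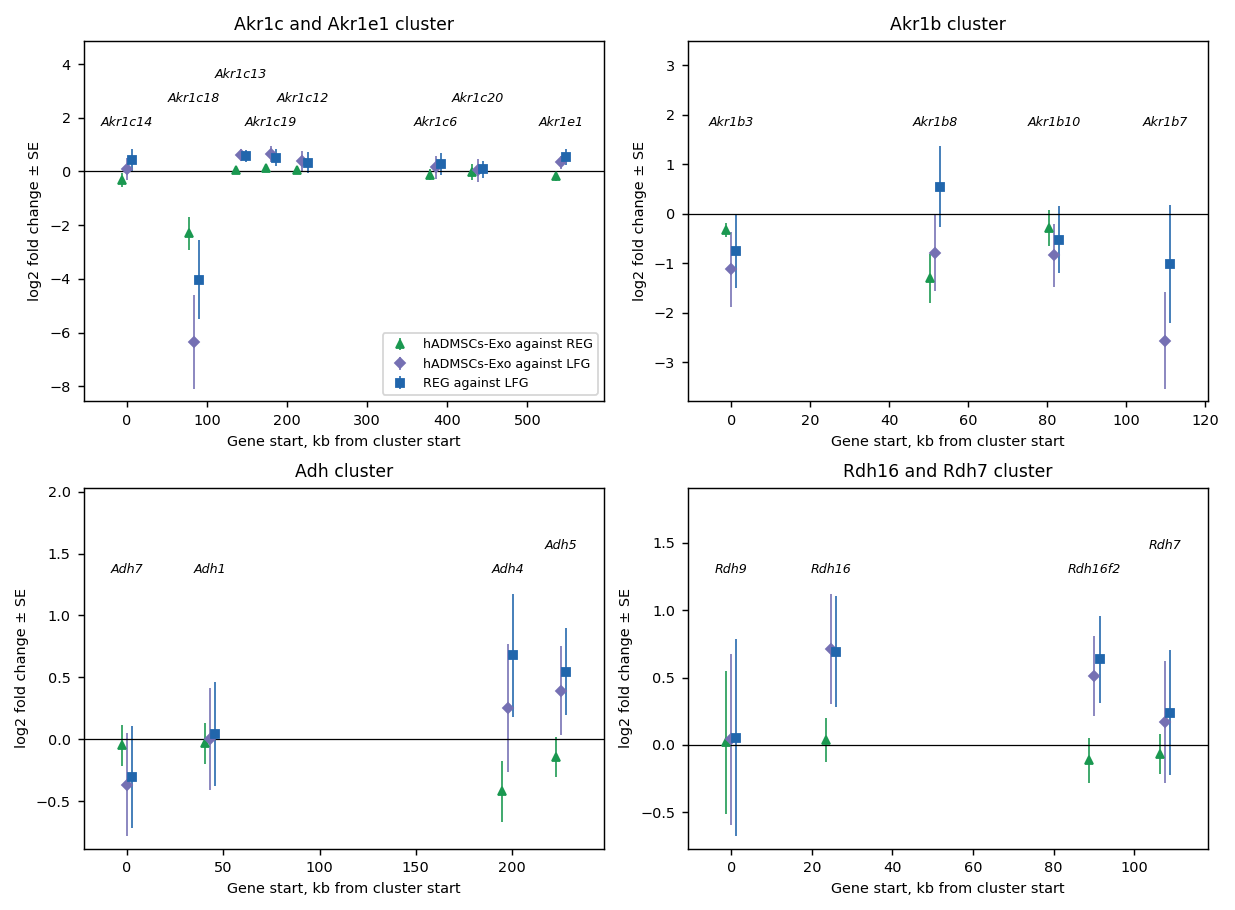
Log2 fold change with standard error of the members of 4 gene clusters against the distance of the gene start from the cluster start in kb, with triangles for hADMSCs-Exo against REG, diamonds for hADMSCs-Exo against LFG and squares for REG against LFG, shifted sideways to be told apart. Akr1c18 stands at -2.30, -6.37 and -4.03, while its neighbours Akr1c14 and Akr1c13 stand at 0.43 and 0.59 for REG against LFG, and Akr1b7 has no value for hADMSCs-Exo against REG because its counts were under the filter there.

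Further members without overlap between groups were picked out after their values were seen. Rdh16, a retinol and hydroxysteroid dehydrogenase, was at 4.30, 12.4 and 13 FPKM in LFG 1, 2 and 3, at 14.3 to 18.6 in REG and at 13.6 to 18.7 in hADMSCs-Exo. Akr1c19 was at 8.07 to 17.9 FPKM in LFG and 18.7 to 21.6 in hADMSCs-Exo, and Dhrs13 at 1.62 to 1.84 and 1.96 to 3.04. Without LFG 3 the log2 fold changes of hADMSCs-Exo against LFG were 0.67 for Akr1c19 and 0.44 for Dhrs13 (adjusted p = 0.211 and 0.399 from edgeR), against 0.64 and 0.45 with it. In Rdh16 LFG 1 was far below the other libraries, and its difference between hADMSCs-Exo and LFG was 0.72 (adjusted p = 0.825 from edgeR) and 0.98 without LFG 3 (adjusted p = 0.167 from edgeR). Its unadjusted p was under 0.05 without LFG 3 and also with the replicate number as a block.

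Partner genes of these enzymes were counted from lists grouped by function. Of 31 retinoid handling genes (binding proteins, esterases, receptors and carotenoid oxygenases), 25 were tested and with all libraries 0 reached an adjusted p under 0.05 with edgeR. Between hADMSCs-Exo and REG 5 had an unadjusted p under 0.05, all lower with exosomes (Bco1, Bco2, Retsat, Pnpla3 and Rxrg), where 10.0% of all genes passed, and 4.69% did so with a lower value. Bco2, a carotenoid oxygenase, was at 7.53, 9.18 and 9.25 FPKM in REG, at 5.51, 5.89 and 5.33 in hADMSCs-Exo and at 2.07, 2.64 and 3.55 in LFG. The 3 groups did not overlap, and hADMSCs-Exo lay between the others. Rxrg, a retinoid X receptor, was at 2.52 to 3.35 FPKM in REG, 1.65 to 2.47 in hADMSCs-Exo and 0.852 to 1.13 in LFG, with the same order. Against LFG, hADMSCs-Exo had 3 (Bco2 and Rxrg higher, Bco1 lower) and REG had 3 (Bco2, Fabp5 and Rxrg, all higher), beside 5.98% and 11.3% of all genes. Without LFG 3 these counts were 9 (6 higher, 3 lower) and 13 (10 higher, 3 lower) of 25, against 28.5% and 37.3% of all genes tested. An adjusted p under 0.05 from edgeR was then reached by 2 for hADMSCs-Exo (Bco2 at 1.26, Bco1 at -1.27) and by 5 for REG (Bco2 at 1.93, Rxrg at 1.81, Retsat at 1.08, Rara at 1.01 and Cyp26b1 at -2.11), of which Rara and Cyp26b1 were picked out after their values were seen. Of all genes, 7.09% and 16.8% reached that threshold.

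Of 5 partners in ethanol and acetaldehyde metabolism, all tested, 2 had an unadjusted p under 0.05 between hADMSCs-Exo and REG, beside 10.0% of all genes. Acss2, which turns acetate into acetyl-CoA, was at 30.9, 48.6 and 40.9 FPKM in REG, at 13.6, 22.2 and 15.7 in hADMSCs-Exo and at 2.87, 12.7 and 12.9 in LFG. As with Rdh11, REG lay above both other groups in every library, and the log2 fold change was -1.22 for hADMSCs-Exo against REG (with an SE of 0.23, adjusted p = 0.358 from edgeR) and 2.09 for REG against LFG, or 2.42 without LFG 3 (adjusted p = 0.32 and 0.035 from edgeR). Cyp2e1, the cytochrome P450 that oxidises ethanol and activates CCl4, was at 342, 1087 and 5534 FPKM in LFG 1, 2 and 3, at 2078 to 2413 in REG and at 2965 to 4140 in hADMSCs-Exo. Its LFG libraries lay on both sides of the recovery groups, and the log2 fold change was 0.67 for hADMSCs-Exo against REG (adjusted p = 0.407 from edgeR). Against LFG it was 0.66 for hADMSCs-Exo and -0.01 for REG with all libraries, and 2.37 and 1.73 without LFG 3 (adjusted p = 0.0496 and 0.0489 from edgeR). Pericentral markers, 11 genes including Cyp2e1, summed to 3444 to 4030 FPKM in REG and 4420 to 6623 in hADMSCs-Exo, and none was at 0. These sums include the Cyp2e1 values given above and are not separate from them.

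Of 15 bile acid and steroid partners 14 were tested. The oxysterol hydroxylase Cyp7b1 was higher in hADMSCs-Exo than in REG (0.75, adjusted p = 0.409 from edgeR). The bile acid enzyme Cyp7a1 was higher in REG than in LFG (1.37, adjusted p = 0.414 from edgeR, and 1.31 without LFG 3). Each was the 1 partner of its comparison with an unadjusted p under 0.05, beside 10.0% and 11.3% of all genes. For hADMSCs-Exo against LFG there was 0, beside 5.98%. With all libraries none of these 14 had an adjusted p under 0.05 from edgeR. Without LFG 3, the number with an unadjusted p under 0.05 against LFG was 3 in hADMSCs-Exo, all higher, where 28.5% of all genes passed. In REG it was 9 (8 higher, 1 lower), where 37.3% passed. Cyp8b1, the sterol hydroxylase of cholic acid synthesis, picked out after its values were seen, was at 7.41, 9.55 and 90.03 FPKM in LFG 1, 2 and 3, at 18.1 to 78.2 in REG and at 54.7 to 98.7 in hADMSCs-Exo. LFG 1 and LFG 2 were below every recovery library, and its difference from LFG without LFG 3 was 3.08 for hADMSCs-Exo and 2.64 for REG (adjusted p = 0.0104 and 0.0263 from edgeR), against 1.01 and 0.52 with it.

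Sequence shared with other genes limited how firmly single members could be read. Of the 53 members, 20 had no 50-base transcript stretch in common with another gene of GENCODE, and 13 had more than 10% of their stretches in common. Rdh9 shared 92.3%, most of it with Rdh16f1, whose gene model overlaps it. Aldh4a1 shared 45% with the overlapping Gm21969. Aldh16a1, Aldh6a1, Rdh5 and Adh7 also overlapped another gene of the table, and the use of strand in counting is not given in the sources used here.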

How the data were processed

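Liver RNA from 9 mouse samples in 3 groups was analysed. The authors deposited raw read counts per gene, and per the labels the submitters' notes name cutadapt 1.15, HISAT2 2.0.5, HTSeq 0.9.1 and GRCm38. The annotation and strand setting are not given in the sources used here. The deposited FPKM was recomputed from the counts to a largest relative difference of 9.19e-07 and served only for that check. Counts were tested with edgeR 4.0.16 (quasi-likelihood, TMM, filterByExpr, 6 libraries per fit) in R 4.3.3. Alternatives were RLE factors, DESeq2 1.42.0, limma 3.58.1 (voom, quality weights), other count filters, all libraries in one fit, no fold limit, the replicate block and leaving out each library. Log2 CPM used a prior count of 2. Depth was 13837445 to 19840917 reads. Within groups no library repeated another (chi-square per gene at least 27.0). Same-numbered hADMSCs-Exo and LFG samples deviated together (correlations 0.101, 0.308 and 0.18), which is the only ground for reading them as pairs. Named are members with an unadjusted p under 0.05, the 2 most abundant of each role, 14 fixed by role and those nearest the read limit. The members and lists were chosen with earlier results of these data known. The results of 1 gene name matching the rule and of 1 list of partner genes are not reported here. Sequences are from RefSeq (GRCm38.p6).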

Additional observations from a re-analysis of the deposited data

How the results depend on the processing

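With the settings reported 0 members were called, and 0 were called with RLE size factors, without a filter on low counts, with 10 or more counts required throughout, with every library fitted together, with the replicate block or without a limit on fold change. DESeq2 called 1 member in each comparison with LFG (0.512% and 1.91% of all genes), and limma with voom and quality weights called 4 in that of REG (10.3%). Leaving out 1 library gave 0 calls between hADMSCs-Exo and REG, 0 to 4 between hADMSCs-Exo and LFG and 0 to 7 between REG and LFG, with calls only without LFG 3. Counts at an unadjusted p under 0.05 were 7, 19 and 27 with limma (hADMSCs-Exo and REG, hADMSCs-Exo and LFG, REG and LFG, in this order), where 13.6%, 28.1% and 42.0% of all genes passed, 1 with every library fitted together for the first (3.79%), and 3 with 10 or more counts required throughout for the second (6.70%). The replicate block gave 3, 6 and 4 (9.52%, 5.72% and 8.61% of all genes). For REG and LFG the numbers did not pair the samples (correlations 0.415, -0.202 and 0.305). Nor did they for hADMSCs-Exo and REG (correlations 0.159, 0.00938 and 0.0336). Leaving out 1 library gave 2 to 6, 2 to 24 and 2 to 30 members, where 4.92% to 10.7%, 2.91% to 28.5% and 4.51% to 37.3% of all genes passed, and medians of -0.13 to -0.04, 0.0093 to 0.52 and 0.20 to 0.61. The cause was not tested. Of 204 values of the 16 named differences with an unadjusted p under 0.05, 143 kept their direction and side of that threshold under the alternatives, 61 lost the threshold and 0 turned direction. Each group has 3 libraries, LFG 3 was the highest LFG library for 31 members and the lowest for 14, and exact permutation, two-sided, cannot reach a p below 0.1 with 3 against 3.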
